A study of Mus musculus with 6 samples.

Results

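The genes described here are 10 components of the machinery by which a cell detects nucleic acid in its cytosol: Tmem173 (which encodes STING), Cgas, Tbk1, Ikbke, Irf3, Trex1, Aim2, Ddx58 (RIG-I), Ifih1 (MDA5) and Mavs. They were picked by symbol as a pathway, by a rule that uses no measured value but with earlier results of these data known, from the 35932 genes of the count table, and all 10 passed the low-count filter that left 13414 genes for testing. RNA sequencing compared 2 groups of 3 libraries of mouse bone marrow myeloid leukemic blasts, all of genotype MLL-AF9+, the fusion of the genes Kmt2a and Mllt3 that drives an acute myeloid leukemia. Sensitive blasts came from vehicle treatment, and resistant blasts from treatment with cytarabine and doxorubicin, so that resistance and drug exposure cannot be told apart. The labels give no strain, age, dose or time of harvest, no account of how the fusion gene was introduced, and no statement that the libraries came from separate animals, so each p-value reflects variation among these libraries, possibly only technical.

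Cytosolic DNA is bound by cGAS, which makes the second messenger cGAMP. STING, an adaptor in the endoplasmic reticulum, binds cGAMP, moves to the Golgi and recruits the kinase TBK1 or its relative IKK-epsilon, which phosphorylate the transcription factor IRF3 to switch on type I interferon genes. RIG-I and MDA5 bind double-stranded or uncapped RNA and signal to the same kinases through MAVS on mitochondria. TREX1 is an exonuclease that removes cytosolic DNA, and AIM2 binds DNA to assemble an inflammasome. Myeloid cells use both routes, and DNA-damaging drugs are known to put DNA into the cytosol.

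Library totals were between 22206341 and 31856009 counts, and the 10 genes had from 286 to 2763 counts in each library, so none of them was near the detection limit. All 10 blast markers that were looked at (Kit, Cd34, Hoxa9, Hoxa10, Meis1, Mpo, Elane, Myb, Itgam and Cd33) were expressed. Their summed level was 4639 to 5119 CPM (TMM-normalised counts scaled to a common library total) in the sensitive libraries. In the resistant ones it was lower, 4077 to 4592 CPM, with 4 of the 10 markers higher, 3 lower and 3 not passing. The T cell gene Cd3e had at most 1 count in a library and the endothelial gene Emcn 0. The whole T and NK cell list summed to 5.50 to 7.26 CPM in the sensitive libraries and 3.88 to 5.14 CPM in the resistant ones. Of its 2 tested markers 1 was lower. Other marker lists moved with the groups as well. The 4 globin genes of red cells summed to 42.2 to 73.2 CPM in the sensitive libraries and 0.126 to 1.32 CPM in the resistant ones. Of 9 tested neutrophil maturation markers 8 were lower, and the sum of the list went from between 203 and 243 CPM to between 32.8 and 50.6 CPM. The macrophage and monocyte list went from between 954 and 1102 to between 623 and 746 CPM, with 3 of 9 tested markers higher and 3 lower, and the dendritic cell list from between 409 and 439 to between 315 and 351 CPM, with 1 of 6 higher and 3 lower. The plasmacytoid dendritic cell gene Siglech, a defining marker of that cell type, was at 0.46 CPM in the sensitive libraries and 0.04 CPM in the resistant ones on average. Siglech did not pass the low-count filter and was not tested. The B and plasma cell list (170 to 201 against 64.6 to 65.3 CPM, with 1 of 4 tested markers, Ighm, lower) and the endothelial and stromal list (141 to 178 against 44.1 to 53.1 CPM, with 1 of 2, Pecam1, lower) also differed. The part of these shifts in the results below was not tested, and in bulk RNA fewer cells of a type and less RNA per cell cannot be told apart.

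Resistant blasts held less mRNA of Cgas, Tmem173, Ikbke, Irf3 and Trex1 and more mRNA of the RNA sensor gene Ifih1, while Tbk1, the kinase gene between STING and IRF3, did not pass the test. The calls of Ikbke, Irf3 and Trex1 were each lost when certain single libraries were left out, as given with each gene. Of the 10 genes, 5 were lower and 1 was higher at an adjusted p under 0.05 (edgeR quasi-likelihood test, Benjamini-Hochberg over all tested genes), and 4 did not pass. Among all tested genes 39.2% were called in either direction, 20.8% as lower and 18.5% as higher. The 3 values of a group lay apart from those of the other in 6 of the 10 genes, against 52.4% of all tested genes, so that this count alone is close to the background. The median log2 fold change (resistant over sensitive) of the 10 genes was -0.27, beside -0.01 for all tested genes. Only Tmem173 changed by more than 2-fold.

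**Figure D1:**
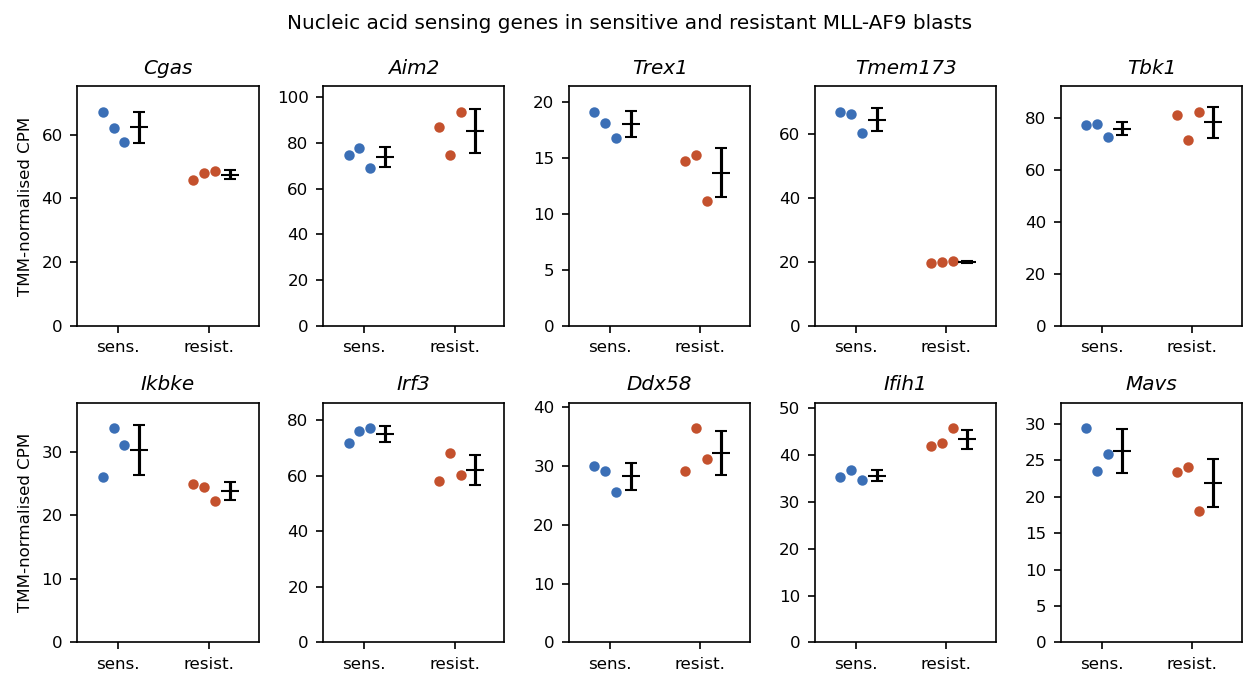
TMM-normalised CPM of the 10 genes in each library (points, 3 sensitive in blue and 3 resistant in orange), with the mean and SD of each group beside them; each panel has its own vertical axis, which starts at 0. The resistant values of Tmem173 lie between 19.5 and 20.3 CPM, far below its sensitive values, while those of Tbk1 lie on both sides of its sensitive values.

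Tmem173 was at 67.1, 66.4 and 60.4 CPM in the 3 sensitive libraries and at 19.5, 20.1 and 20.3 CPM in the 3 resistant ones. The groups were far apart, and the resistant libraries were nearly equal to each other. Its level fell 3.24-fold (log2 fold change -1.69 ± 0.07 SE, edgeR adjusted p = 1.14e-07). Of the 13414 tested genes, 283 had a more negative log2 fold change, and among the 11135 whose counts averaged 50 or more there were 130. The call held under all 14 alternative analyses, with a log2 fold change between -1.74 and -1.67.

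Cgas, whose product makes the ligand of STING, was at 67.2, 62.1 and 57.6 CPM in the sensitive libraries and 45.9, 47.9 and 48.8 CPM in the resistant ones. Every resistant value was below every sensitive value. Its log2 level fell by 0.39 ± 0.07 (edgeR adjusted p = 0.00173) and passed under all 14 alternatives. The fall of Cgas was thus much smaller than that of Tmem173, and within each library the counts of Tmem173 relative to those of Cgas, a ratio that needs no scaling between libraries, went from 1.04 ± 0.0365 to 0.42 ± 0.00501 (SD, n = 3 per group) without overlap.

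Trex1, the exonuclease that limits the DNA available to cGAS, was the least deeply counted of the 10 genes. It was at 19.1, 18.1 and 16.8 CPM in the sensitive libraries and 14.7, 15.2 and 11.2 CPM in the resistant ones. The groups did not overlap, but resistant library 3 stood below the other two. The log2 fold change was -0.39 ± 0.12 (edgeR adjusted p = 0.0257), and the call was lost without sensitive library 1 (0.0869), sensitive library 2 (0.075) or resistant library 3 (0.0626, with a log2 fold change of -0.26). In the annotation Trex1 overlaps Atrip, a checkpoint gene on the same strand, whose own log2 fold change was 0.13 ± 0.08 (edgeR adjusted p = 0.221). How shared reads were assigned is not given in the sources used here. The counts of Cgas relative to Trex1 were 3.46 ± 0.0479 in sensitive and 3.55 ± 0.715 in resistant libraries, with overlapping groups.

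Aim2, the inflammasome DNA sensor, did not pass the test, with a mean that was higher in resistant blasts. It was at 74.7, 77.6 and 69.0 CPM in the sensitive libraries and 87.1, 74.6 and 93.6 CPM in the resistant ones. Resistant library 2 fell within the sensitive range and the other two lay above it. The log2 fold change of 0.21 ± 0.08 did not pass (edgeR adjusted p = 0.071). Without resistant library 2 it was 0.30 and passed (0.00935), and it also passed with no low-count filter (0.0367), which changes the genes that are tested.

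Among the kinases that act below STING and MAVS, Tbk1 and Ikbke gave different results. Tbk1 was at 77.3, 77.5 and 72.9 CPM in the sensitive libraries and 81.1, 71.4 and 82.4 CPM in the resistant ones. The groups overlapped and the log2 fold change was 0.05 ± 0.07 (edgeR adjusted p = 0.624); no alternative made it pass. Ikbke, which encodes IKK-epsilon, was at 26.0, 33.7 and 31.0 CPM in the sensitive libraries and 24.9, 24.4 and 22.3 CPM in the resistant ones. Its groups did not overlap, although sensitive library 1 stood close to the resistant values. Ikbke fell by 0.34 ± 0.10 (edgeR adjusted p = 0.0223), a call that was lost without sensitive library 2 (0.105), sensitive library 3 (0.0704) or resistant library 3 (0.0836). The counts of Tbk1 relative to Ikbke were 2.54 ± 0.378 in sensitive and 3.29 ± 0.389 in resistant libraries, and these ratios overlapped. No test of the difference between the changes of these kinases was made.

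Irf3, the transcription factor on which both routes converge, was at 71.7, 75.9 and 77.0 CPM in the sensitive libraries and 58.0, 68.0 and 60.2 CPM in the resistant ones. All 3 resistant values were below the sensitive ones, with resistant library 2 nearest to them. Irf3 fell by 0.27 ± 0.07 (edgeR adjusted p = 0.0119). Without sensitive library 2 or sensitive library 3 the adjusted p was 0.0525 or 0.0515. Irf3 overlaps Bcl2l12, a gene of the BCL2 family on the opposite strand, which was at -0.12 ± 0.10 on the same scale (edgeR adjusted p = 0.336). Whether the counting used strand is not given in the sources used here.

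Of the RNA sensors Ifih1 rose and Ddx58 did not pass. Ifih1 was at 35.3, 36.9 and 34.7 CPM in the sensitive libraries and 42.0, 42.6 and 45.8 CPM in the resistant ones, with every resistant value above every sensitive value. Ifih1 rose by 0.29 ± 0.07 (edgeR adjusted p = 0.00724), and it passed under all 14 alternatives. Ddx58 was at 29.9, 29.1 and 25.6 CPM in the sensitive libraries and 29.2, 36.4 and 31.1 CPM in the resistant ones. Resistant library 1 lay within the sensitive range, and the log2 fold change of 0.19 ± 0.10 did not pass (edgeR adjusted p = 0.153). The counts of Ifih1 relative to Ddx58 were 1.27 ± 0.087 in sensitive and 1.36 ± 0.166 in resistant libraries, with overlapping groups. No test of the difference between the changes of these sensors was made. Dhx58, the relative of both that lacks a signalling domain and was named here after its values were seen, had 20.5 ± 2.03 CPM in the sensitive libraries and 19.6 ± 2.44 CPM in the resistant ones (edgeR adjusted p = 0.696).

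Mavs, the mitochondrial adaptor of both RNA sensors, was at 29.4, 23.5 and 25.9 CPM in the sensitive libraries and 23.4, 24.1 and 18.1 CPM in the resistant ones. The groups overlapped, and resistant library 3 was the lowest. The log2 fold change of -0.27 ± 0.12 did not pass (edgeR adjusted p = 0.105; 0.0681 to 0.335 over the 14 alternatives). The counts of Ifih1 relative to Mavs were 1.37 ± 0.187 in sensitive and 2.03 ± 0.433 in resistant libraries and did not overlap.

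**Figure D2:**
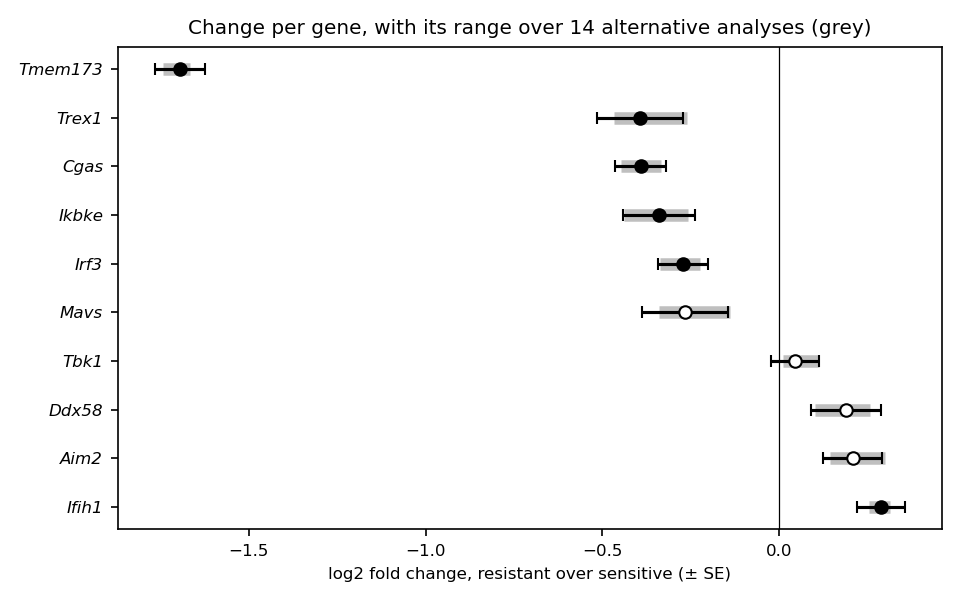
Log2 fold change of each gene, resistant over sensitive (points, with SE as bars; filled where the edgeR adjusted p is under 0.05), over a grey band from the lowest to the highest value in the 14 alternative analyses. Tmem173 at -1.69 stands far to the left of the other 9, which lie between -0.39 and 0.29.

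Per exon length the order of the genes changed mainly through Tmem173. Levels per length are counts per kilobase of annotated exon, scaled to the same total in every library (TPM). The length merges the exons of all annotated transcripts of a gene, so it can exceed that of the transcript in use. In sensitive blasts Tmem173 had the highest level of the 10 genes, 66.8 ± 4.1 TPM, above 81.3% of tested genes. Irf3 with 61.6 ± 2.0 TPM, Aim2 with 59.7 ± 3.7 TPM and Tbk1 with 55.0 ± 2.1 TPM followed, each with libraries that overlapped those of its neighbour in the order. Trex1 at 44.5 ± 3.1 TPM and Cgas at 42.8 ± 3.5 TPM overlapped each other, and Mavs at 22.2 ± 2.6 TPM stood apart from both its neighbours. The RNA sensors and Ikbke were lowest, with Ifih1 at 12.4, Ddx58 at 11.3 and Ikbke at 9.5 TPM. They also have the longest merged exons of the 10 genes (8165, 7050 and 9018 bases), so their places depend on the length used. In CPM, Ikbke (30.2) and Ddx58 (28.2) lay above Mavs (26.2) and Trex1 (18.0) in sensitive blasts.

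In resistant blasts Tmem173 was the sixth gene in this order, at 19.7 ± 0.2 TPM, above 53.5% of tested genes. It lay below Cgas (31.1 ± 0.5 TPM), which it had exceeded in sensitive blasts, and its libraries overlapped those of Mavs (17.7 ± 3.0 TPM). Aim2 was now highest at 65.7 ± 6.8 TPM, apart from Tbk1 at 54.1 ± 4.0 TPM. Irf3 at 48.7 ± 4.3 TPM overlapped Tbk1. Ikbke remained the lowest at 7.2 ± 0.6 TPM.

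**Figure D3:**
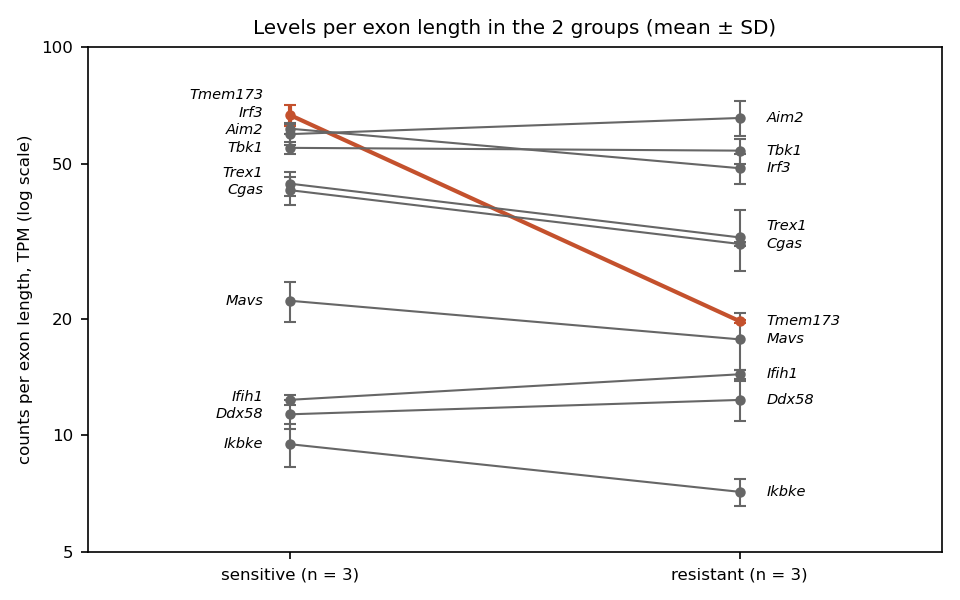
Level per exon length (TPM, log axis) of the 10 genes in sensitive and resistant blasts, as mean and SD of 3 libraries, with a line for each gene. The line of Tmem173, in orange, crosses those of 5 other genes as it goes from 66.8 to 19.7 TPM, while the lowest gene in both groups is Ikbke, which has the longest exon length.

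Interferon itself activates several genes of these pathways through the interferon-stimulated response element, so promoter windows were searched for its core. The windows are RefSeq sequences of build GRCm38.p6 that run from 250 bases before to 50 bases after an annotated transcript start, and 9 of the 10 genes matched. Which gene had no window was not recorded, so the counts below give no result for Tmem173. The core searched was GAAA, any 2 bases and GAAA again, on both strands. It was present in 2 of the 9 genes, the RNA sensors Ifih1 and Ddx58. The 9 genes had 10 windows, and a gene was counted if any of its windows matched. Counted per window, an unlike measure, the core was in 3.44% of all 32851 windows. The core was also present in 10 of 20 matched interferon and IRF3 target genes, among them Isg15 and Ifit1, which are shown for comparison. A match is a description of letters and not a binding site.
Capitals mark the core on either strand, and the lines are 30 bases each, 5′ to 3′ on the strand of the gene.
Ifih1, chr2:62646206-62646235 (minus strand): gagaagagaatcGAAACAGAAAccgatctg
Ddx58, chr4:40239804-40239833 (minus strand): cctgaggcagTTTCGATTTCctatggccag
Isg15, chr4:156200871-156200900 (minus strand): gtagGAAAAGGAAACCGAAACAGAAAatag
Ifit1, chr19:34640794-34640823 (plus strand): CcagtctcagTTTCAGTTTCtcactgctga

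The core lies within the first 50 transcribed bases in Ifih1, from base 33, and in Ddx58, from base 3 on the opposite strand. In Isg15 3 overlapping matches run together, starting 78, 72 and 66 bases before the start, and in Ifit1 the match shown begins 85 bases before the start, after another whose last base is the first capital of its line. Of the 4 genes shown, Ifih1 alone passed the test between the groups. Isg15, named with Ifit1 because their windows are shown, was at 3.81 ± 0.545 CPM in the sensitive libraries and 3.58 ± 0.895 CPM in the resistant ones (edgeR adjusted p = 0.735), and Ifit1 was at 2.69 ± 0.492 and 3.31 ± 0.588 CPM (0.284). Searches for GGGA, any 3 bases and TCC (an NF-kB type site, in 4.59% of all windows) and for TTC, any 3 bases and GAA (a STAT type site, in 8.3%) on both strands matched none of the 9 genes; no overlap between different motifs arose there.

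Most transcripts that the pathway switches on did not pass the test, as was so for most tested genes, of which 39.2% were called. Of 26 interferon and IRF3 target transcripts listed, 25 were in the table and 19 could be tested, of which 1 was higher, 2 were lower and 16 did not pass, with a median log2 fold change of -0.10. The interferon genes Ifnb1, Ifna2 and Ifna4 and the cytokine gene Il6 had 0 counts in all 6 libraries, where 3 counts in a library would be 0.0945 to 0.137 CPM; this limit covers counting error only. The antiviral GTPase gene Mx1 fell from 6.06 ± 0.457 to 3.58 ± 0.54 CPM (edgeR adjusted p = 0.00347) and the exonuclease gene Isg20 from 3.43 ± 0.429 to 2.02 ± 0.475 CPM (0.0173; lost without sensitive library 2, 0.076, or resistant library 1, 0.0556). Rtp4, an interferon-induced gene, rose from 6.51 ± 0.547 to 10.6 ± 1.94 CPM (edgeR adjusted p = 0.00398).

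Of 19 transcription factors and interferon receptor genes 8 were lower, 2 higher and 9 not passing, beside 20.8% lower and 18.5% higher among all tested genes, with a median of -0.14. Irf8, the monocyte and dendritic cell lineage factor, fell 2.15-fold to 38.5 ± 4.1 from 82.8 ± 11.7 CPM (edgeR adjusted p = 3.02e-05). Irf1 fell by 0.48 ± 0.08, Stat2, a subunit of the factor that binds the interferon element, by 0.41 ± 0.07, and the receptor gene Ifnar2 by 0.47 ± 0.06. The receptor gene Ifnar1 (-0.26 ± 0.08), named after its value was seen, was among the 8 as well (edgeR adjusted p = 0.02). Irf7, the interferon-induced relative of Irf3 and also outside the naming rule, was at 16.4 ± 1.16 and 20.3 ± 3.31 CPM (0.0711). In the same libraries 8 of 9 tested neutrophil markers were lower, while 3 of 9 macrophage and monocyte markers were lower and 3 higher, as given above; their part in these values was not tested.

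Around RIG-I, MDA5 and MAVS changes went both ways: among 41 genes tested, 10 rose, 10 fell and 21 did not pass, with a median log2 fold change of 0.00. The shares over all tested genes were 18.5% higher and 20.8% lower. Zcchc3 stood out, a zinc finger gene whose product is known as a helper of both cGAS and the RNA sensors in binding nucleic acid. It had 230, 122 and 140 counts in the sensitive libraries and 1, 0 and 2 in the resistant ones. Scaled to depth this was 152-fold lower in resistant blasts, with a 95% exact counting interval of 51.6 to 738, which covers counting error only; its edgeR adjusted p was 2.44e-06. Oas2, which makes the signal that activates RNase L, rose by 0.68 ± 0.10 to 32.1 ± 1.64 CPM, and Zc3hav1l, a relative of the antiviral zinc finger protein ZAP, by 0.57 ± 0.09 to 32.7 ± 2.53 CPM. Traf2, a signalling adaptor, fell by 0.36 ± 0.06 (edgeR adjusted p = 0.00165).

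In the scaffold around TBK1 and the IKK kinases 4 of 22 tested genes rose, 6 fell and 12 did not pass, with a median of 0.01. Over all tested genes 18.5% were higher and 20.8% lower. The adaptor gene Tbkbp1, whose product binds TBK1, rose from 30.3 ± 4.65 to 44.9 ± 2.22 CPM (edgeR adjusted p = 0.00178). Optn, an autophagy receptor that TBK1 phosphorylates, fell from 5.05 ± 0.56 to 2.02 ± 0.514 CPM. The NF-kB kinase genes changed in opposite directions: Ikbkb fell from 106 ± 2.29 to 69.1 ± 3.04 CPM (edgeR adjusted p = 1.84e-05), and Chuk rose from 85.5 ± 2.66 to 111 ± 11.8 CPM (0.00255).

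Of the genes that move, modify or degrade STING 30 were tested, of which 5 rose, 3 fell and 22 did not pass, beside 18.5% higher and 20.8% lower among all tested genes; their median was 0.08. Rhbdf2, which encodes iRhom2, a protein that aids the trafficking of STING, fell 2.42-fold to 6.62 ± 1.46 from 16.0 ± 0.531 CPM (edgeR adjusted p = 9.09e-05). The ubiquitin ligase gene Rnf5, which promotes the breakdown of STING, fell by 0.41 ± 0.08, and the cholesterol transporter gene Npc1 by 0.32 ± 0.08 (edgeR adjusted p = 0.0119; 0.0513 without sensitive library 1). Copb1, a coat subunit of Golgi-to-ER transport, rose by 0.26 ± 0.05.

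Nucleases and other genes listed for their effect on self nucleic acid or cGAMP moved both ways. Of 19 tested, 4 were higher (Pnpt1, Poldip2, Slc19a1 and Abcc1), 5 lower and 10 not passing, with a median of -0.07. Poldip2, Slc19a1 and Abcc1 were named after their values were seen. For comparison, 18.5% of all tested genes were higher and 20.8% lower. The endolysosomal exonuclease genes Pld4 and Pld3 both fell, Pld4 2.03-fold to 42.8 ± 4.89 from 86.7 ± 7.97 CPM (edgeR adjusted p = 1.84e-05) and Pld3 from 67.6 ± 2.38 to 47.0 ± 5.26 CPM (0.000664). Rnaseh2c, a subunit of the RNase H2 complex that shares a disease with Trex1, fell by 0.42 ± 0.08. The genes of its partner subunits, Rnaseh2a (-0.05 ± 0.07, edgeR adjusted p = 0.547) and Rnaseh2b (0.01 ± 0.06, 0.927), did not pass. Both were named after their values were seen. Pnpt1, a mitochondrial RNA-degrading enzyme gene, rose by 0.44 ± 0.06. The marker shifts given above were in the same libraries, and their part in these values was not tested.

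Among other proposed DNA sensors and inflammasome genes 5 of 25 tested were higher, 6 lower and 14 not passing, with a median of -0.01. The background was 18.5% higher and 20.8% lower among all tested genes. Lrrfip1 fell by 0.45 ± 0.06 and Ifi209, a relative of Aim2, from 3.74 ± 0.0747 to 1.38 ± 0.228 CPM (edgeR adjusted p = 0.000257 for each). Casp1, the caspase that inflammasomes activate, rose from 52.1 ± 4.49 to 67.4 ± 0.0462 CPM (edgeR adjusted p = 0.00222). Pycard, the adaptor between AIM2 and caspase-1, fell by 0.21 ± 0.06 and Gsdmd, the pore protein gene that caspase-1 cleaves, by 0.37 ± 0.08 (edgeR adjusted p = 0.0144 and 0.00507); both were named after their values were seen.

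**Figure D4:**
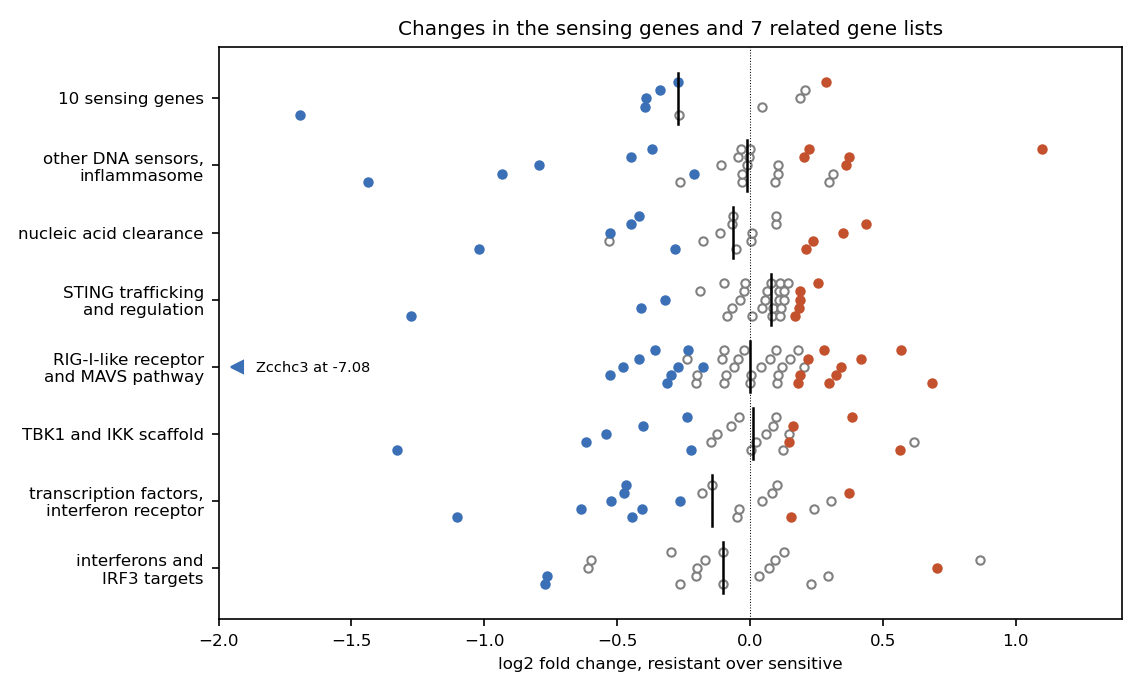
Log2 fold change, resistant over sensitive, of every tested gene in the 10 sensing genes and 7 related lists (orange, higher and blue, lower at an edgeR adjusted p under 0.05; open, not passing; vertical bars, medians). Medians lie between -0.27 for the sensing genes and 0.08 for STING trafficking, and Zcchc3, beyond the axis, is drawn as a triangle with its fitted value, which depends on the prior count.

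The tested genes whose profile was most like that of Tmem173 over the 6 libraries were Cd93, Ccdc7b, Slc5a4b, Slfn2 and Tbc1d8. Likeness was the root mean square difference of log2 CPM, each gene centred on its own mean, among 10334 named genes whose counts averaged 50 or more, and it was 0.0759 for Cd93 and 0.0923 to 0.0997 for the other 4. Cd93, a surface receptor of progenitors and myeloid cells, went from 158 ± 10.3 to 54.1 ± 0.638 CPM. Slfn2, a Schlafen family gene, went from 36.6 ± 2.4 to 10.9 ± 0.842 CPM. These genes were picked for this pattern, so their values are a description.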

How the data were processed

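The authors deposited whole-number counts per Ensembl gene, 1 column for each of 6 libraries. The submitters' processing notes name TopHat2, RSEM and build mm9; versions, strand setting and the handling of shared reads are not given in the sources. IDs were matched to symbols and exon lengths in GENCODE M21, a later build, used for names, lengths and neighbouring genes only; 31636 of 35932 IDs had a symbol, and 0 columns were unused. After filterByExpr and TMM scaling, 13414 genes were tested in edgeR 4.0.16 (R 4.3.3) with glmQLFit and glmQLFTest, group being the sole term. Adjusted p-values are Benjamini-Hochberg values over those genes, called under 0.05. Errors are SD over 3 libraries or SE of a log2 fold change. The common dispersion gives a coefficient of variation of 8.37% between libraries. Pairs of libraries from the same group differed by more than sampling noise (chi-square divided by its degrees of freedom 3.92 or more), so none was a copy. The edgeR step recovered known changes in simulated counts with 200 changed genes, far fewer than the 5260 called here. That simulation therefore does not set the error rate of these calls. The 14 alternatives were RLE, upper quartile and total scaling, DESeq2 1.42.0, limma-voom (limma 3.58.1), no filter, a filter on CPM, a block for the replicate number, and each library left out. Named genes were the 10 members, from each of 7 pathway lists up to 4 genes past the test with the smallest adjusted p plus up to 3 past it with a 2-fold change, and the 5 nearest to Tmem173. Members and lists were chosen with earlier results of these data known.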

Additional observations from a re-analysis of the deposited data

How the results depend on the processing

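Over the 14 alternatives no gene named by the rule changed direction. The call was unchanged in 6 of the 10 sensing genes and 30 of 32 other genes so named. The exceptions, Ikbke, Irf3, Trex1, Aim2, Npc1 and Isg20, are given with their adjusted p above. Genes named outside the rule, Mndal, Ifi207, Ifnar1, Pycard and Gsdmd among them, were not followed over the alternatives. Leaving out each library in turn gave 1641 to 2521 higher and 2015 to 2711 lower genes over all tested genes (2475 and 2785 with all 6 libraries); the lowest count of higher genes came without sensitive library 2. Of the 10 sensing genes 2 to 5 were then lower (2 without sensitive library 2, 3 without sensitive library 3 or resistant library 3) and 1 to 2 higher (2 without resistant library 2). Without a low-count filter 2 sensing genes were higher, as Aim2 joined Ifih1. Same-numbered libraries of the groups did not deviate together (correlations of 0.04, -0.01 and -0.09). With 3 libraries in each group this check cannot exclude that they share a batch or origin. With the replicate number as a block, 2497 genes were higher and 2824 lower, with 1 and 5 of the sensing genes among them. Scalings moved the median of all genes to between -0.04 and 0.00 on the log2 scale.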

Other observations

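The gene family of Aim2, the interferon-inducible p200 genes, gave calls in both directions, where 39.2% of all tested genes were called. Mndal was higher (35.6 ± 5.6 against 45.6 ± 4.72 CPM, log2 fold change 0.36 ± 0.12, edgeR adjusted p = 0.0298). Its groups overlapped, with sensitive library 1 at 41.0 CPM and resistant library 2 at 40.2 CPM. Ifi209 and Ifi207 were lower, Ifi207 with 0.744 ± 0.102 against 0.383 ± 0.0616 CPM (edgeR adjusted p = 0.0372). The value of Ifi207 rests on 7 to 25 counts in a library. Ifi203, Ifi204, Ifi208 and Ifi211 did not pass, and Ifi205 and Ifi213 were below the low-count filter and not tested. These genes are near-identical in part, and reads shared between them make each value uncertain. The family was singled out after its values were seen.

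Xrcc5 and Xrcc6 encode the partners of the Ku heterodimer, which binds DNA ends. Per exon length Xrcc5 was at 1.87 ± 0.261 TPM in sensitive and 3.83 ± 0.349 TPM in resistant blasts, far below Xrcc6 at 51.6 ± 2.75 and 48.3 ± 5.32 TPM. Its rise of 1.10 ± 0.19 on the log2 scale (edgeR adjusted p = 0.00123) therefore rests on 44 to 114 counts in a library. Why the counts of the partners differ so much was not tested.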
